A study of Mus musculus with 4 samples.

Results

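The genes described here encode the channels and pumps that move calcium across the plasma membrane and the membrane of the endoplasmic reticulum. They were taken by symbol: Cacna, Cacnb and Cacng genes of voltage-gated channels, Trpc, Trpv and Trpm channels, Piezo1 and Piezo2, Stim and Orai genes, IP3 receptors (Itpr), ryanodine receptors (Ryr), and the calcium pumps Atp2a and Atp2b. In this way 67 of the 47729 genes in the count files were chosen, and none by its measured level. The set itself was chosen with earlier results of these data known. RNA came from mice of the strain label BL/6 and the genotype label Control (Rosa), which all 4 libraries share. All 4 titles also carry the tag MSX1, which no label explains. The labels give neither the age of the mice, nor the length of hypoxia, nor what the Rosa allele carries. In the normoxic group, library 1 pooled 3 females and library 2 pooled 1 female and 2 males. The Sugen-hypoxia group (label Sugen-Hypoxic) had 2 libraries of 2 males each, whose mice had received both hypoxia and Sugen, which blocks VEGF receptors, a pairing used to produce pulmonary hypertension in rodents. Sugen was not given apart from hypoxia, and treatment cannot be told apart from the sex of the pools.

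Calcium enters cells through voltage-gated channels, which open on depolarisation, through TRP and Piezo channels, which respond to lipids, temperature, stretch or other stimuli, and through Orai channels, which STIM proteins open when the endoplasmic store is emptied. IP3 receptors and ryanodine receptors release calcium from the store, SERCA pumps (Atp2a) refill it, and PMCA pumps (Atp2b) expel calcium from the cell. In pulmonary arteries this traffic sets the contraction of smooth muscle, and in endothelium, epithelium and leukocytes it drives secretion, migration and gene expression.

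The 4 libraries held 57319562 to 67135829 gene counts. Labels name lung as the source while the extraction text names kidney. The 9 lung identity genes summed to 29980 to 36720 CPM (counts per 1000000, here on library sizes scaled by the TMM method), and the kidney genes Umod, Slc22a6 and Kap were at 0 in 3, 4 and 4 of the 4 libraries. The highest of 13 kidney markers was Lrp2, which other epithelia also express, at 104 to 174 CPM. Since whole tissue was measured, fewer cells of a type and less RNA per cell cannot be told apart. Nothing in the labels says whether the pools of a group were handled apart, so p-values measure only the spread between these libraries.

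Of the 67 genes, 53 passed the filter on low counts and were tested, and 11 of them differed between Sugen-hypoxia and normoxia at an adjusted p of at most 0.05 (edgeR's quasi-likelihood test, adjusted over all 18783 genes tested by Benjamini-Hochberg). The 7 that rose included Trpv4, Cacna1c, Stim2, Cacnb3, Cacna2d1 and Orai1. Cacna1i, Trpm2, Atp2b2 and Itpr3 fell. The 11 make up 20.8% of the tested calcium genes, beside 11.5% of all tested genes (5.51% higher and 6.01% lower). Cacna1c, Cacnb3 and Cacna2d1 encode a pore, a beta and an alpha2delta subunit of voltage-gated channels. The median log2 fold change of the 53 genes was -0.22, with 73.6% of them below 0, while the median over all tested genes was -0.0039 with 50.5% below 0. Above a mean level of 1 CPM, 12 of 43 calcium genes passed, beside 15.1% of all genes so chosen. In 40 of the 53 genes (75.5%) the groups did not overlap, beside 61.7% of all tested genes. Both treated libraries lay below both normoxic ones in 30 of the 53 and above them in 10, beside 31.6% and 30.0% of all tested genes. The 30, the median and the share below 0 include Cacna2d2, Trpm5 and Trpv3, which passed the filter through the normoxic group alone. Their lower levels therefore give no support to these figures. With the filter on mean CPM, the median of the calcium genes was -0.17.

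How many calcium genes passed depended on which libraries entered the fit. Without normoxic library 1 or normoxic library 2, 0 calcium genes passed in edgeR, with 16 and 17 at an unadjusted p under 0.05, and 0.128% and 0.577% of all genes passed. In those fits the spread comes from the treated pair alone. Without treated library 1, 9 rose and 15 fell, and without treated library 2, 10 rose and 11 fell, where 25.7% and 24.4% of all genes passed. With a treated library left out, the spread comes from the normoxic pair alone. All 11 genes kept their direction in each of the 4 fits with 1 library left out. The balance of 7 higher and 4 lower became 6 and 6 on upper-quartile scaling, 6 and 7 on plain library sizes, 9 and 7 with DESeq2, and 8 and 12 without the expression filter. Over all genes, 1035 higher and 1128 lower became, in the same order, 799 and 1424, 765 and 1584, 1651 and 1603, and 1775 and 1882. In these settings 11.8, 12.5, 17.3 and 13.4% of all tested genes passed, so all genes shifted too. When the male share of each pool entered the fit (1 residual degree of freedom remaining), 0 calcium genes passed in edgeR, 9 had an unadjusted p under 0.05, and all 11 kept their direction. In that fit 0.0586% of all genes passed. Within a group, the male share differed only between the normoxic pools, so its slope rests on that pair. Some values moved away from 0, such as Atp2b2 (-0.80 to -1.22) and Trpm2 (-0.89 to -1.20). Others moved toward 0, such as Cacna1e (-1.17 to -0.40). Between the normoxic pools, whose male shares were 0 and 66.7%, the 11 genes differed by at most 0.43 on the log2 scale, in Atp2b2, where the pool with males was the higher one.

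**Figure D1:**
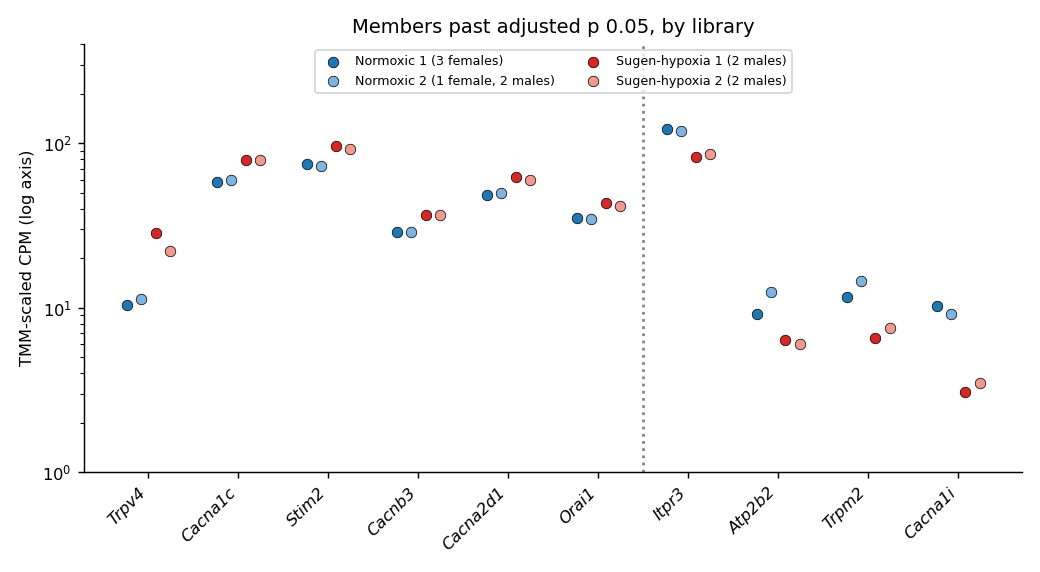
TMM-scaled CPM on a log axis for 10 calcium genes past the threshold, 1 point per library (blue, normoxic; red, Sugen-hypoxia), with genes that rose left of the dotted line. The treated points lie apart from the normoxic points in each gene, from a mean of 10.8 against 25.4 CPM in Trpv4 to 9.69 against 3.29 CPM in Cacna1i.

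Promoter sequence is shown for the genes with the largest rise and fall, Trpv4 and Cacna1i, and for Stim2 and Itpr3, as examples with cores of the hypoxia or dioxin response elements. Such cores were also found in promoters of Cacna1c, Trpm2, Cacna2d1, Orai1 and Atp2b2, which are not shown. Each line holds the 250 bases before the RefSeq start (GRCm38.p6, 5′ to 3′ on the gene's strand). Capitals mark ACGTG, the core bound by hypoxia-inducible factors, and GCGTG, the core bound by the aryl hydrocarbon receptor, on either strand.
Trpv4, chr5:114658422-114658671, minus strand: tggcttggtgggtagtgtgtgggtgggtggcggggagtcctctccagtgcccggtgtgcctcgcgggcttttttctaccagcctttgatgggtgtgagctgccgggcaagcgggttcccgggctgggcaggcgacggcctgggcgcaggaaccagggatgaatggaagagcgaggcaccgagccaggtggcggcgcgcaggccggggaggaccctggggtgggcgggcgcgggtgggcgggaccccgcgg
Stim2, chr5:53998273-53998522, plus strand: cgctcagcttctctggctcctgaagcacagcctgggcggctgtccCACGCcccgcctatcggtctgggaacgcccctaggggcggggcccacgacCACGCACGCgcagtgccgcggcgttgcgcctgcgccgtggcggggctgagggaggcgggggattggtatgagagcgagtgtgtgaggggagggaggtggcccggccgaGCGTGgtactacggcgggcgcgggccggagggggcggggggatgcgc
Cacna1i, chr15:80286988-80287237, plus strand: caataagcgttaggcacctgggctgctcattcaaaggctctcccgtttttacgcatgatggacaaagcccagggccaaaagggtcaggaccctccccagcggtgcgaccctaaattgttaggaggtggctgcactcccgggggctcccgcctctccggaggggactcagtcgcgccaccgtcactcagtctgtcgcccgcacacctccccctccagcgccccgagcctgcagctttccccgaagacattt
Itpr3, chr17:27057054-27057303, plus strand: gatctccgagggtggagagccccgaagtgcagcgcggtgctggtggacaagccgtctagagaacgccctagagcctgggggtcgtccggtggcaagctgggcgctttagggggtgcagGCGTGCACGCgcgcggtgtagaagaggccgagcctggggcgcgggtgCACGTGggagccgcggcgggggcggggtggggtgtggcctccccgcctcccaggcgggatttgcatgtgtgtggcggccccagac

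Trpv4 and Cacna1i held 0 of these cores, Stim2 held 4 matches to GCGTG, and Itpr3 held 2 matches each to ACGTG and GCGTG, of which the ACGTG pair is 1 palindrome read on both strands. RefSeq promoters were matched by symbol for 54 of the 67 genes, among them 10 that passed. These 10 genes had 15 promoter windows, since some have several starts. ACGTG was present in 1 of 9 windows of the genes that rose and 2 of 6 of those that fell, against 16.6% of all 32851 promoter windows of the same length. GCGTG was present in 3 of 9 and 4 of 6, against 28.2% of all, 42.9% of the windows of all calcium genes matched and 40.5% of those of calcium genes that did not pass. Of the 4 windows, 3 are starts of a single gene, Atp2b2, and the other is that of Itpr3. The CArG box, the site of serum response factor in smooth muscle genes, was in 0 of 15 windows and 1.47% of all. TGGAAA, a core of NFAT sites, was in 2 of 9 and 1 of 6 windows and 18.6% of all. Those 2 windows are starts of a single gene, Cacna1c. The windows of the genes that rose had a median of 23 CpG dinucleotides and those of the genes that fell 13, against 6 over all promoters. The median was 9 over all calcium genes matched and 9 over those that did not pass. Windows of 1 gene differed widely, with 5, 48 and 2 in Cacna1c. A match is only a match of letters, and bears on no factor's binding.

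Among the 10 pore subunits of voltage-gated channels, 9 were tested, 1 rose and 1 fell. Per length of merged exons (RPKM, CPM per kilobase), Cacna1d, the L-type channel Cav1.3, and Cacna1c, the L-type channel Cav1.2 that carries the main calcium current of arterial smooth muscle, were the highest, at mean levels of 5.28 and 3.25 RPKM. Cacna1c (ENSMUSG00000051331, GRCm38 chromosome 6, 118587240 to 119196418, minus strand) was at 58.0 and 59.8 CPM in normoxic libraries 1 and 2 and at 79.0 and 78.5 CPM in treated libraries 1 and 2. Both treated libraries lay above both normoxic ones, a log2 fold change of 0.42 ± 0.05 (SE) with edgeR adjusted p = 0.0122. Cacna1d was at 67.8 and 69.0 CPM and then 66.6 and 63.2 CPM, a log2 difference of -0.08 ± 0.06 that did not pass (adjusted p = 0.434, edgeR). The Cacna1c to Cacna1d ratio per length, which no library scaling can change, was (like the other ratios given here, for a pair chosen after its values were seen) 0.51 and 0.516 in normoxia and 0.707 and 0.74 after treatment.

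Cacna1i (ENSMUSG00000022416, chromosome 15, 80287238 to 80398279, plus strand), the T-type channel Cav3.3 best known from neurons, showed the largest fall among the genes that passed. It was at 10.2 and 9.17 CPM in normoxia and at 3.09 and 3.49 CPM after treatment. The groups were far apart, with a log2 fold change of -1.56 ± 0.15 (edgeR adjusted p = 0.0065), which ran from -1.65 to -1.47 with any 1 library left out. Its share of the summed RPKM of all pore subunits went from 9.46 and 8.72% to 2.94 and 3.32%. The other T-type channels, Cacna1g and Cacna1h, had overlapping groups and log2 values of -0.38 and -0.40 that did not pass. Cacna1e, the R-type channel Cav2.3, was at 7.87 and 4.75 CPM and then at 1.99 and 3.62 CPM, with a log2 value of -1.17 ± 0.37 and edgeR adjusted p = 0.101. The all-female pool was its highest library, and with the male share as a covariate the value was -0.40 ± 0.57. Cacna1a, the P/Q-type channel Cav2.1, was higher at 8.12 and 7.54 CPM against 5.62 and 5.14 CPM, but its 0.54 ± 0.13 did not pass (edgeR adjusted p = 0.059; DESeq2 adjusted p = 0.0232). Cacna1b was at 0.613 to 1.33 CPM and Cacna1s, the skeletal muscle channel, at 1.10 to 2.18 CPM, and neither passed.

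Auxiliary subunits set the surface level and gating of these pores. Of the 4 alpha2delta genes, Cacna2d1, whose product binds gabapentin, was the highest per length at a mean of 4.44 RPKM. Cacna2d1 was at 48.3 and 49.7 CPM and rose to 62.6 and 59.8 CPM, a log2 fold change of 0.32 ± 0.06 (edgeR adjusted p = 0.0289). The other alpha2delta genes lay lower after treatment without passing, with log2 values of -1.75 for Cacna2d2, -0.86 for Cacna2d3 and -0.65 ± 0.20 for Cacna2d4. Cacna2d4 was at 13.2 and 9.07 CPM and then 7.67 and 6.57 CPM (edgeR adjusted p = 0.0996), and its value was -0.08 ± 0.26 with the male share as a covariate. Cacna2d1 thus held 70.3 and 78.4% of the summed alpha2delta RPKM in normoxia and 84.7 and 86.2% after treatment.

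Of the 4 beta genes, Cacnb3 had the highest level per length, a mean of 8.14 RPKM. Cacnb3 was at 28.7 and 28.8 CPM in normoxia and rose to 36.4 and 36.7 CPM, with the pools of each group almost equal (log2 fold change 0.35 ± 0.06, edgeR adjusted p = 0.0254). Cacnb1, Cacnb2 and Cacnb4 were lower in both treated libraries than in both normoxic ones, with log2 values of -0.19, -0.23 and -0.32 that did not pass. Of the 8 gamma genes 3 were tested and 0 passed in edgeR, with 1 at an unadjusted p under 0.05 and 0 called by DESeq2 or limma-voom. Cacng7 led these with 5.62 to 6.76 CPM and overlapping groups (log2 value -0.10 ± 0.15, edgeR adjusted p = 0.716). Cacng4 and Cacng8 stayed at or under 0.974 and 0.667 CPM, and Cacng1, Cacng2, Cacng3, Cacng5 and Cacng6 did not reach the filter.

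**Figure D2:**
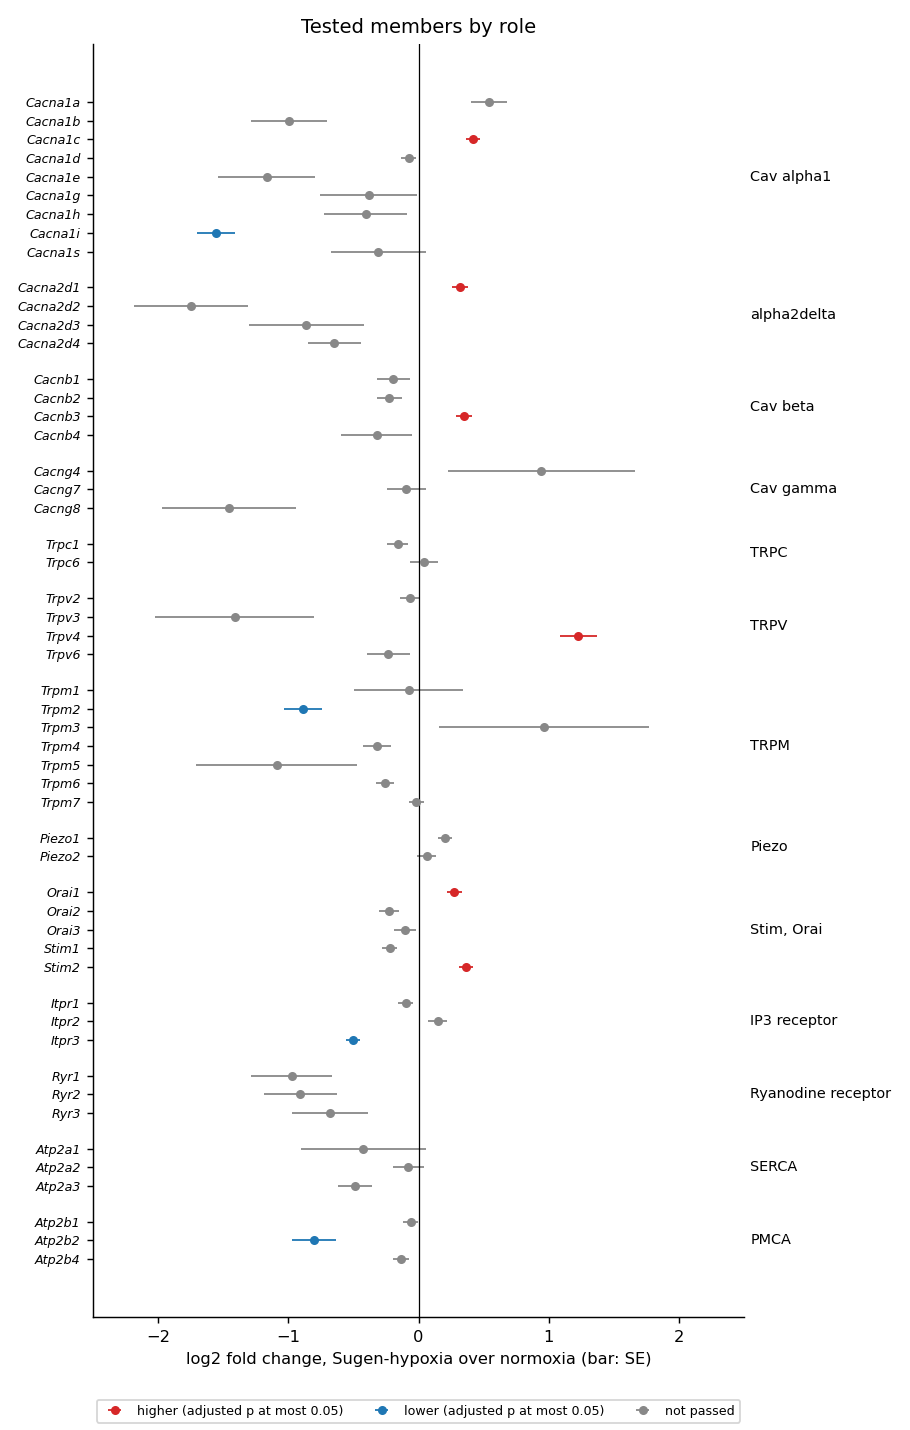
Log2 fold change of the tested calcium genes described here, grouped by role, with bars of 1 standard error; red points rose and blue points fell at an adjusted p of at most 0.05, and grey points did not pass. The points that passed lie in 8 of the 13 groups. The pore, alpha2delta, beta, gamma, TRPC, TRPV, TRPM, store-operated and IP3 receptor groups hold genes on both sides of 0.

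Trpv4 (ENSMUSG00000014158, chromosome 5, 114622152 to 114658421, minus strand), a cation channel opened by cell swelling, stretch and lipid messengers and known in endothelium, smooth muscle and epithelium of the lung, was at 10.3 and 11.3 CPM in normoxia. It rose to 28.6 and 22.1 CPM, and the lower treated library was still well above both normoxic ones. Its log2 fold change was 1.23 ± 0.14 (edgeR adjusted p = 0.00956) and ran from 1.03 without treated library 1 to 1.40 without treated library 2. Trpv2, the highest TRPV gene per length on average, was at 26.6 and 27.7 CPM and then 24.8 and 27.1 CPM (log2 value -0.06 ± 0.08, edgeR adjusted p = 0.63). Within a library the Trpv4 to Trpv2 ratio per length was 0.428 and 0.451 in normoxia and 1.27 and 0.899 after treatment. Trpv6, a calcium-selective channel of epithelia, was at 4.47 to 5.87 CPM without passing, Trpv3 was at or under 0.424 CPM, and Trpv1 and Trpv5 did not reach the filter.

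Trpc6, a channel opened by diacylglycerol downstream of receptors and known in pulmonary arterial smooth muscle, was the most abundant TRPC gene per length at a mean of 5.32 RPKM. It was at 26.7 and 26.5 CPM and then 30.1 and 24.6 CPM, with overlapping groups (log2 value 0.04 ± 0.11, edgeR adjusted p = 0.834; -0.03 with library size alone). Trpc1 had a log2 value of -0.16 that did not pass. Trpc2 did not reach the filter; its exons overlap those of Xndc1 and Xntrpc on the same strand, so that the count of 0 is uncertain.

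Of the 8 TRPM genes 7 were tested and 1 fell. Trpm2, a channel opened by ADP-ribose under oxidative stress and well known in neutrophils and monocytes, was at 11.6 and 14.4 CPM and fell to 6.55 and 7.50 CPM (log2 fold change -0.89 ± 0.15, edgeR adjusted p = 0.0224). Neutrophil markers were lower too: 7 of 8 tested fell, and all 9 summed to 479 and 630 CPM in normoxia and 275 and 210 CPM after treatment. Trpm2 and this sum were both higher in normoxic library 2 than in normoxic library 1. Between the treated libraries their order was opposite, with Trpm2 higher in treated library 2. Macrophage and monocyte markers did not fall as a list, with 2 of 12 higher and 1 lower, a median log2 value of 0.62, and sums of 1425 and 1279 against 2367 and 5590 CPM. No gene of either list was at 0 in all libraries, and their part in the fall of Trpm2 was not tested. Trpm7, a channel fused to a kinase and the most abundant TRPM gene per length (mean 9.54 RPKM), was at 106 to 111 CPM in all libraries (log2 value -0.02 ± 0.06, edgeR adjusted p = 0.862). Trpm6, a magnesium channel, and Trpm4, a calcium-activated sodium channel, were lower in both treated libraries, with log2 values of -0.26 and -0.32 that did not pass. Trpm1, Trpm3 and Trpm5 were at or under 0.559 CPM and did not pass, and Trpm8 did not reach the filter.

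The Piezo channels open on membrane stretch, and Piezo1 is the shear sensor of endothelium. Of the 2 genes 0 passed in edgeR and 0 in limma-voom, with 1 at an unadjusted p under 0.05 and 1 called by DESeq2. Piezo1 was at 225 and 223 CPM in normoxia and at 258 CPM in each treated library, a log2 value of 0.20 ± 0.06 (edgeR adjusted p = 0.0776; DESeq2 adjusted p = 0.018). Piezo2 lay at 70.0 to 79.8 CPM with overlapping groups and a log2 value of 0.06.

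In store-operated entry, 2 of 5 genes rose and 0 fell. Stim2 (ENSMUSG00000039156, chromosome 5, 53998499 to 54121057, plus strand), the store sensor that responds to small losses of calcium, was at 74.2 and 72.4 CPM in normoxia and rose to 96.4 and 92.5 CPM (log2 fold change 0.37 ± 0.06, edgeR adjusted p = 0.018). Stim1, the sensor of larger losses, was at 93.8 and 93.1 CPM and then 82.2 and 78.0 CPM, a log2 value of -0.22 ± 0.06 that did not pass (edgeR adjusted p = 0.061). The groups of both genes were apart, in opposite directions, and the Stim2 to Stim1 ratio per length was 1.60 and 1.57 in normoxia and 2.37 and 2.40 after treatment. Orai1, the pore of the store-operated channel, rose from 35.0 and 34.6 CPM to 43.0 and 41.3 CPM (log2 fold change 0.28 ± 0.06, edgeR adjusted p = 0.0431). On upper-quartile scaling or plain library sizes Orai1 did not pass (edgeR adjusted p = 0.0688 and 0.0767), nor did it with the male share in the fit (edgeR adjusted p = 0.619). Orai2 and Orai3, its relatives, had log2 values of -0.23 and -0.10 that did not pass, although Orai3 had the highest mean level per length of the 5 genes at 17.6 RPKM. The Orai1 to Orai2 ratio per length was 3.75 and 3.60 in normoxia and 5.16 and 5.25 after treatment.

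**Figure D3:**
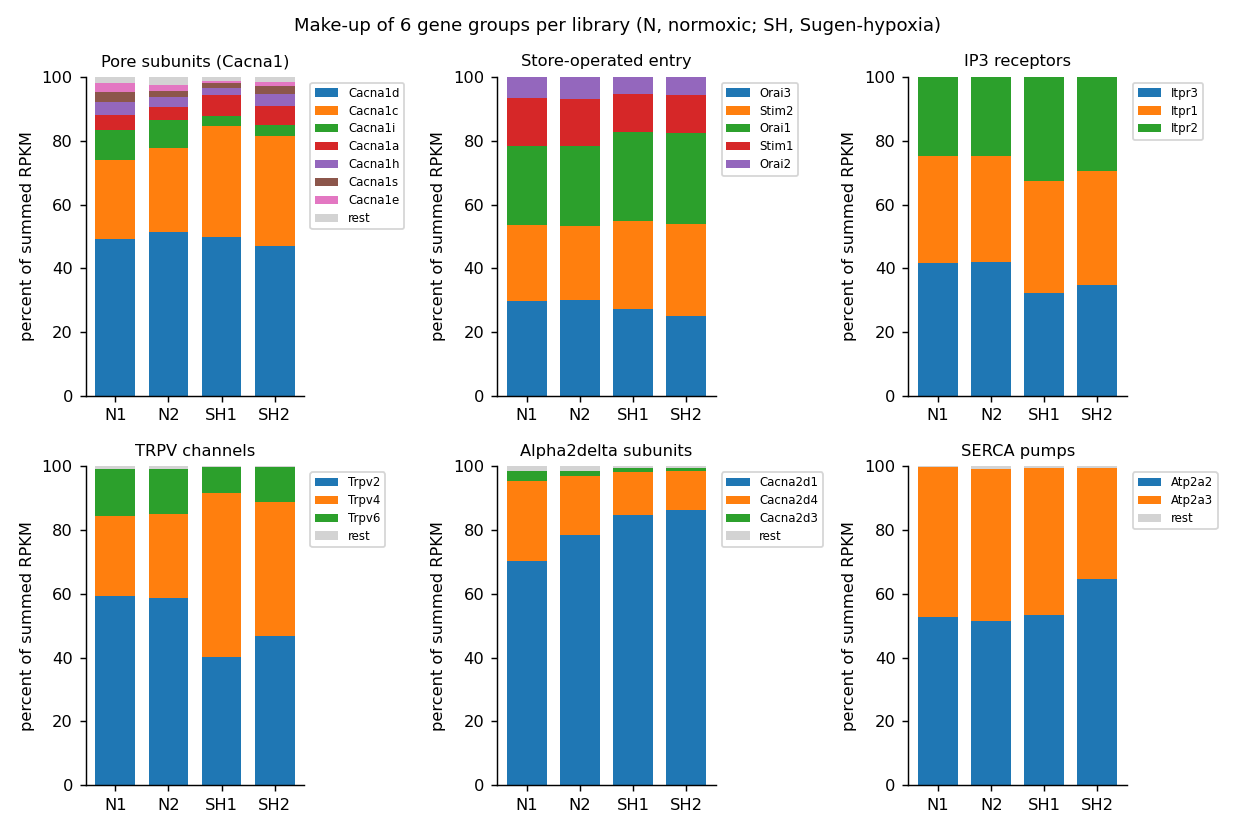
Share of each gene in the summed RPKM of its group, for 6 groups and the 4 libraries (N1 and N2, normoxic; SH1 and SH2, Sugen-hypoxia), where grey holds genes under 2% in every library. The Trpv4 share is 25.3 and 26.4% in N1 and N2 against 51.2 and 42.1% in SH1 and SH2, and the Itpr3 share is 41.6 and 41.9% against 32.2 and 34.7%.

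The 3 IP3 receptors, which release stored calcium when hormones or neurotransmitters act on the cell, had mean levels of 8.30 to 11.3 RPKM. Itpr3 (ENSMUSG00000042644, chromosome 17, 27057304 to 27122223, plus strand), the type known from many epithelia, was at 121 and 118 CPM in normoxia and fell to 82.6 and 86.4 CPM. Pools of a group were close and the groups far apart, with a log2 fold change of -0.50 ± 0.06 (edgeR adjusted p = 0.00875). Itpr1, the main type of smooth muscle, and Itpr2 had log2 values of -0.10 ± 0.06 and 0.15 ± 0.08 that did not pass. Itpr3 was the highest of the 3 per length in both normoxic libraries, and Itpr1 the highest in both treated ones. These ranks depend on the exon lengths used (18319 bases for Itpr1, 9019 for Itpr3). By CPM, Itpr1 was the highest of the 3 in all libraries, at 180 to 200. Airway epithelial markers were lower too: 11 of 12 ciliated cell markers fell, from sums of 696 and 693 to 442 and 456 CPM, and 2 of 6 club cell markers fell, from 16860 and 16460 to 13170 and 10750 CPM. Alveolar epithelial markers differed less, with 1 of 8 type 1 markers lower (median log2 value -0.14) and 1 of 8 type 2 markers lower (median -0.12; sums of 24190 and 23170 against 23470 and 22660 CPM). No gene of these 4 lists was at 0 in all libraries, and their part in the fall of Itpr3 was not tested.

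Of the 3 ryanodine receptors, the release channels of striated muscle and other excitable cells, 0 passed in edgeR, DESeq2 and limma-voom, with 2 at an unadjusted p under 0.05. Ryr2, the heart type, was at 36.3 and 38.5 CPM in normoxia and at 13.7 and 26.1 CPM after treatment. Both treated libraries lay below both normoxic ones but far from each other, and the log2 value of -0.91 ± 0.28 had edgeR adjusted p = 0.0966. It was -1.45 without treated library 2 and -0.52 without treated library 1. Fits with a single treated library hold nothing of the spread between the treated pools. Ryr1 was at 2.71 and 1.94 CPM and then 1.39 and 0.978 CPM, a log2 value of -0.97 ± 0.31 (edgeR adjusted p = 0.103). Ryr3, whose exons overlap those of Aven on the other strand, was at 1.39 and 1.58 CPM and then 0.794 and 1.06 CPM, a log2 value of -0.68 ± 0.29 (edgeR adjusted p = 0.189). Heart muscle, which in mice extends into the walls of pulmonary veins, also gave its lowest marker sum in treated library 1, as Ryr2 did. The 14 markers summed to 746 and 706 CPM in normoxia and to 312 and 505 CPM in treated libraries 1 and 2, none was at 0, and 1 of the 14, Myl7, fell. Unlike Ryr2, the marker Myh7 was lower in treated library 2 than in treated library 1. The part of heart muscle in the level of Ryr2 was not tested.

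**Figure D4:**
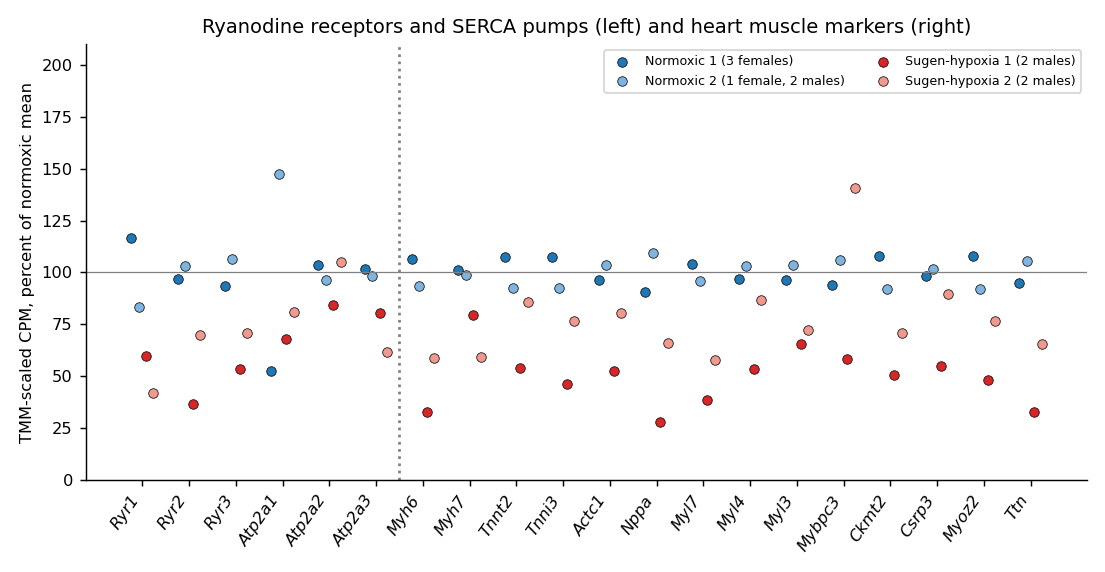
TMM-scaled CPM as a percent of the normoxic mean of each gene, for the ryanodine receptors and SERCA pumps (left of the dotted line) and 14 heart muscle markers (right), 1 point per library. Ryr2 stood at 36.6 and 69.8% in treated libraries 1 and 2, while the 14 markers ranged from 27.9% (Nppa) to 79.6% (Myh7) in treated library 1 and from 57.7% (Myl7) to 140.9% (Mybpc3) in treated library 2.

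Atp2a2 and Atp2a3, both SERCA pumps, had the highest mean levels per length of the 67 genes. Atp2a2, the general and cardiac form, had a mean of 78.8 RPKM and Atp2a3, a form of platelets, leukocytes, endothelium and some epithelia, 62.9 RPKM. Atp2a2 was at 509 and 475 CPM in normoxia and at 414 and 518 CPM after treatment, so that the treated libraries enclosed the normoxic ones (log2 value -0.08 ± 0.12, edgeR adjusted p = 0.706). Without treated library 2 its value was -0.24, and without treated library 1 it was 0.07. Atp2a3 was at 394 and 382 CPM and then 313 and 240 CPM, a log2 value of -0.49 ± 0.13 that did not pass in edgeR (adjusted p = 0.0681). Of the 3 genes 0 passed in edgeR and limma-voom, with 1 at an unadjusted p under 0.05 and 1 called by DESeq2. Atp2a1, the skeletal muscle form, was at 1.67 to 4.67 CPM with overlapping groups, and the highest value was in normoxic library 2. Exons of Rabep2 overlap it on the other strand.

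Among the PMCA pumps, Atp2b2 (ENSMUSG00000030302, chromosome 6, 113743831 to 114042613, minus strand), a form known from hair cells and mammary gland, fell from 9.18 and 12.4 CPM to 6.33 and 6.02 CPM (log2 fold change -0.80 ± 0.17, edgeR adjusted p = 0.0404). Its adjusted p was the highest among the 4 falls that passed in edgeR. The value was -0.57 without normoxic library 2, and limma-voom gave adjusted p = 0.0549. Atp2b1, at 63.3 to 66.1% of the summed PMCA RPKM, and Atp2b4, at 31.9 to 33.1%, had log2 values of -0.06 and -0.13 that did not pass. Atp2b1, the housekeeping form, was at 243 and 242 CPM and then 236 and 228 CPM. Atp2b3 and, among the pore subunits, the retinal Cacna1f did not reach the filter. The 14 genes under the filter were at or below 0.167 CPM in every library, and 6 of them had a count of 0 in all 4. Among the 53 tested genes, Cacna2d2, Trpm5 and Trpv3 passed the filter through the normoxic group alone, so their lower levels after treatment give no support to a count of lower genes.

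Other genes of calcium handling were counted from 7 lists. Of 130 tested partner genes, 14 rose and 3 fell, beside the shares of 5.51 and 6.01% over all tested genes, with a median log2 fold change of 0.09. The list of calcium channel regulators held the most that rose, with 5 of 17 higher and 0 lower. Its 18 genes nonetheless summed to 2680 and 2706 CPM in normoxia and 2393 and 2129 CPM after treatment. The 5 included the small G proteins Rrad, Gem and Rem1, known as inhibitors of voltage-gated channels through their beta subunits. Rrad was at 10.63 and 10.02 CPM in normoxia and rose to 29.2 and 22.4 CPM (log2 fold change 1.32 ± 0.14, edgeR adjusted p = 0.00832). Gem rose by 0.62 ± 0.07 and Rem1 by 0.77 ± 0.15. Cabp1, a calmodulin-like modulator of calcium channels and IP3 receptors, rose by 1.26 ± 0.15, from 3.09 and 3.44 to 7.85 and 7.76 CPM. Unc80, on the same list but a subunit of the sodium leak channel complex, rose by 1.01 ± 0.23.

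On the list of calmodulin, its kinases and calcineurin with NFAT, 4 of 27 rose and 1 fell. Rcan1, an inhibitor of calcineurin that NFAT itself induces, was at 38.3 and 40.5 CPM and rose to 65.2 and 66.0 CPM (log2 fold change 0.74 ± 0.06, edgeR adjusted p = 0.00526). Camkk2 and Camk1, an upstream kinase and its substrate kinase, rose by 0.43 and 0.34, while Camkk1 fell by 0.60 on the log2 scale. Camk1g, the remaining gene counted as higher, was at 0.0585 and 0.0334 CPM in normoxia and 0.469 and 0.435 CPM after treatment. It passed the filter on low counts through the treated group alone, so its call gives no support to the counts of 4 and 14 genes that rose. Among store partners 3 of 31 rose and 2 fell. Jph2, which ties the store to the plasma membrane in muscle, rose from 39.8 and 43.0 to 60.1 and 56.8 CPM, a log2 fold change of 0.50 ± 0.07. Itpripl1 and Itpripl2, relatives of an IP3 receptor partner, rose by 0.40 and 0.36. Atp2c2, a pump of the secretory pathway in epithelia, fell by 0.93 ± 0.15 on the log2 scale and Cracr2b, an Orai regulator, by 0.37 ± 0.08.

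Of the exchange and sodium pump list 2 of 15 rose: Slc8a1, the sodium-calcium exchanger of heart and smooth muscle, by 0.34 ± 0.08 and the pump subunit Atp1b2 by 0.84 ± 0.16 on the log2 scale. Of 19 genes of IP3 production 0 passed in edgeR, with 10 at an unadjusted p under 0.05, 7 called by DESeq2 and 1 by limma-voom. Of 11 genes of mitochondrial calcium uptake 0 passed in edgeR, DESeq2 and limma-voom, with 2 at an unadjusted p under 0.05. Of 10 other TRP and endolysosomal channels 0 passed in edgeR and limma-voom, with 4 at an unadjusted p under 0.05 and 1 called by DESeq2. No partner gene passed in edgeR without normoxic library 1 or without normoxic library 2.

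Smooth muscle and pericytes are known to use Cacna1c. Of 12 smooth muscle markers 7 rose and 1 fell, with sums of 1472 and 1586 CPM in normoxia and 2108 and 2195 CPM after treatment. Of 11 pericyte markers 4 rose and 0 fell, with sums of 1265 and 1303 against 1633 and 1451 CPM, and of 12 fibroblast markers 3 rose and 0 fell. The median log2 value was 0.33 for smooth muscle and 0.20 for pericytes. Of 15 endothelial markers 3 rose and 5 fell, with sums of 6005 and 5790 against 6746 and 5792 CPM. Lymphocyte markers were lower: 11 of 12 for T and NK cells, with sums of 106 and 91.0 against 39.2 and 42.8 CPM, and 9 of 10 for B cells, whose sums nonetheless overlapped at 1052 and 721 against 304 and 1172 CPM. No gene of these 6 lists was at 0 in all libraries. The part of these lists in the changes of the calcium genes was not tested.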

How the data were processed

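RNA from 4 pooled mouse lung samples was sequenced. Each deposited file lists, gene by gene, unnormalized counts that the authors made with STAR 2.5.1b and HTSeq on GRCm38.p4, per the submitters' processing notes; no label names the annotation or the strandedness. Column 4, the reverse-strand count, was used, since it held 20.9 to 24.9 times the other strand's counts. Summary lines that name no gene were left out of library sizes: unmapped reads came to 6.45 to 7.55%, multimapping to 4.50 to 4.54%, no feature to 7.73 to 9.98% and ambiguous to 1.10 to 1.13%. Counts were fitted with edgeR 4.0.16 (filterByExpr, leaving 18783 genes; TMM factors; quasi-likelihood test of Sugen-hypoxia against normoxia) in R 4.3.3, with Benjamini-Hochberg adjustment and a threshold of 0.05. CPM are on TMM-scaled library sizes, and RPKM divides them by the merged exon length of GENCODE M21, in which 47310 of 47729 genes were found. Merged exons join all annotated transcripts of a gene, so ranks per length between genes depend on these lengths. DESeq2 1.42.0, limma-voom (limma 3.58.1), other factors, filters, unstranded counts, the male share of the pool and leaving out each library were alternatives. The procedure was tested on simulated data with the same group sizes, with 200 of 18783 genes changed in each of 5 draws. Of the calls, 17.6% were false, above the threshold of 0.05. That share depends on how many genes were changed. In the real data 2163 genes passed, so the share need not be the same there. Of the changes of 1.5-, 2- and 4-fold put in, 34.9, 57.3 and 75.5% were recovered, so single calls are uncertain. Cacna1c, Stim2, Cacnb3, Cacna2d1, Orai1 and Itpr3 passed with folds of 1.21 to 1.42, under the smallest fold put in. Full values are given for genes that passed, for genes with a log2 change of at least 0.5 and a mean of at least 1 CPM, and for the highest gene per length of each role; partner genes (138 typed, 135 found) are named if they passed, at most 5 per list. Library numbers follow the order of deposit. The genes and lists were chosen with earlier results of these data known. Promoters are from RefSeq (GRCm38.p6). The result for 1 gene is not reported here.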

Additional observations from a re-analysis of the deposited data

How the results depend on the processing

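No paired analysis was possible because the labels give no replicate numbers shared between the groups. With 2 libraries a group, an exact permutation test of a single gene cannot go below p = 0.333, so the calls rest on the spread shared across genes. Over all genes, 1035 rose and 1128 fell. With library size alone 765 rose and 1584 fell, and with upper-quartile factors 799 and 1424. DESeq2 put 1603 lower. The number that rose was 1651 with DESeq2, 1775 without the expression filter and 4 with the male share as a covariate, and ran from 17 to 2663 with 1 library left out. The number that fell was 1882 without the filter and 7 with the covariate, and ran from 8 to 2454. Of the calcium genes, 7 rose and 4 fell. The covariate left 0 and 0, and leaving out 1 library gave 0 to 10 and 0 to 15. The number that fell was 7 with DESeq2, 7 with library size alone and 12 without the filter. Of the partner genes, 14 rose and 3 fell. The covariate left 0 and 0, and leaving out 1 library gave 0 to 32 and 0 to 20. Without the filter 22 rose and 14 fell, and the number that fell was 11 with DESeq2, 8 with library size alone and 7 with upper-quartile factors. The median log2 change of the calcium genes, -0.22, was -0.22 with DESeq2 and RLE factors, -0.29 with library size alone, -0.20 with limma-voom, -0.12 with the covariate, -0.17 with the mean CPM filter and unstranded counts, -0.27 with upper-quartile factors, and -0.20 to -0.17 with 1 library left out. The direction of single genes under each setting was followed only for the genes given full values. Among those, it turned in 4 that did not pass, and other tested genes may have turned as well. Atp2a2 was 0.0218 with the covariate and 0.0748 without treated library 1, down to -0.2449 with another library left out. Cacng7 ran from -0.1834 to 0.0038 with 1 library left out, the latter without normoxic library 2. Trpc6 was -0.0285 with library size alone and -0.0096 with upper-quartile factors. With 1 library left out Trpc6 ran from -0.1073 to 0.1807, the former without treated library 1. Trpm7 was 0.0548 with the covariate. With 1 library left out Trpm7 ran from -0.0563 to 0.0256, the latter without normoxic library 1. The cause was not tested. Fewer samples, or fewer degrees of freedom, enter the fits with a library left out or the covariate.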
